A study of Mus musculus with 21 samples.

Results

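Toll-like receptor genes and their partners were followed in the mouse ventral pons after the facial nerve was cut. The 10 genes were chosen by symbol, with earlier results of these data known. They were Tlr1, Tlr2 and Tlr4 (receptors of the cell surface), Tlr3, Tlr7, Tlr9 and Tlr13 (receptors of endosomes), Cd14 and Ly86 (co-receptors) and Myd88 (an adaptor). All 10 were found among the 45664 gene rows of the count table, and all 10 were among the 22294 genes that passed the filter on low counts.

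Toll-like receptors are membrane proteins of innate immune cells that bind conserved microbial molecules or products of damaged cells. Surface receptors bind lipoproteins and lipopolysaccharide, whereas endosomal receptors bind nucleic acids. Most of them signal through the adaptor Myd88 to NF-kB and interferon regulatory factors, and Tlr3 signals through a different adaptor. In the brain microglia are a main source of these receptors, and after a cut of the facial nerve microglia around the axotomized motor neurons proliferate and change state although the injury lies outside the brain.

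The groups were the lesion pons (right) and the contralateral pons (left) at days 7, 14 and 30 after axotomy, and the unoperated pons (left, day 0), with 3 libraries in each of the 7 groups. The right facial nerve was cut at the stylomastoid foramen at 8 weeks of age, so mice were 9, 10 and 12 weeks old at days 7, 14 and 30, and the unoperated mice were 8 weeks old. All mice, the unoperated ones included, were C57BL/6 of the line CX3CR1GFP/wt, in which green fluorescent protein replaces 1 copy of the microglial fractalkine receptor gene. Polyadenylated RNA of the whole tissue block was sequenced, so more cells of a type and more RNA per cell cannot be told apart. The labels do not say that replicates of a group came from separate animals, and p-values measure the spread between these libraries.

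Summed counts were 17358868 to 29827291 in the operated libraries and 35874913 to 41448945 in the day 0 libraries. Sprr1a, a gene that axotomized neurons switch on, averaged 226, 226 and 63.3 CPM (CPM being the read count scaled by library total and TMM factor) in the lesion pons at days 7, 14 and 30, against 0.316, 0.242 and 0.491 CPM in the contralateral pons. The sides of the day 30 libraries rest on the sample descriptions, since the count columns carry the opposite letters. Lesion and side were not varied separately, and neither were day and age, so that these cannot be told apart. By the column names the day 14 and day 30 libraries each had a lane of their own. Day 0 and day 7 carry the same lane name, but 2 index sequences of day 0 recur among the day 7 libraries, so these cannot have shared 1 lane of 1 run. Every comparison with day 0, and every one between days, therefore also compares lanes or runs, and these cannot be told apart from day. Day 7 lesion replicate 3 stood apart by choroid plexus markers, whose summed level was 4562 CPM there and 11.4 to 944.8 CPM in the other 20 libraries. Mitochondrial transcripts made up 2.81% of counts in day 14 lesion replicate 2, against 4.48% in replicate 1 and 4.4% in replicate 3.

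Levels of the 10 genes in the unoperated pons spanned a wide range per transcript length (RPKM, CPM per kilobase of the length given in the count table). Ly86 was highest at 12.1 ± 0.77 RPKM (SD, n = 3, as for the following), followed by Tlr3 at 4.75 ± 0.78 and Myd88 at 3.17 ± 0.082 RPKM. The lipopolysaccharide co-receptor gene Cd14 had 1.91 ± 0.22 RPKM and Tlr2 1.59 ± 0.11 RPKM, and these neighbours had overlapping spreads (1.66 to 2.07 RPKM and 1.49 to 1.71 RPKM). Tlr7 at 0.624 ± 0.092 and Tlr13 at 0.517 ± 0.13 RPKM overlapped too, as did Tlr9 at 0.336 ± 0.023 and Tlr4 at 0.318 ± 0.035 RPKM. Tlr1 was lowest at 0.162 ± 0.027 RPKM, which rested on 16 to 24 reads per library. The length of Ly86 is 997 bases in the count table and 3632 exon bases in GENCODE M21, a later annotation than the 1 used for counting. The same counts divided by the GENCODE M21 length give 3.32 RPKM for Ly86 and 4.01 RPKM for Tlr3. These values set counts of 1 annotation over lengths of another, so they are not a like measure. Whether Ly86 stays first under the later annotation was not tested.

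**Figure D1:**
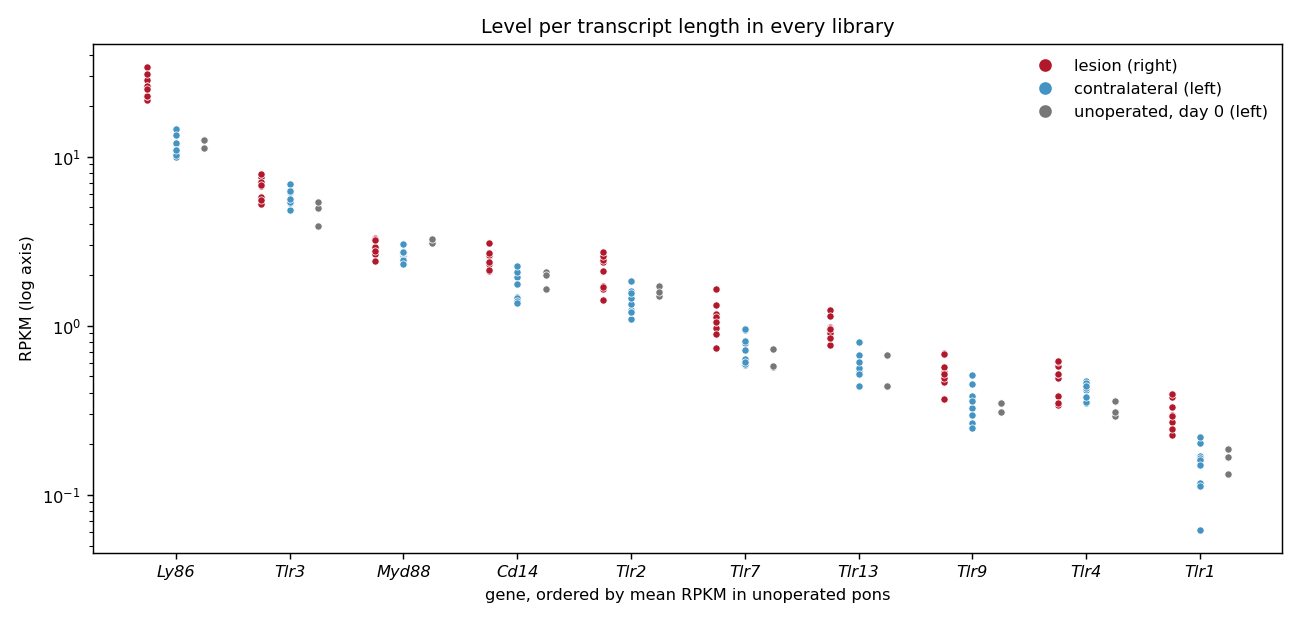
RPKM on a log axis for each gene, with the lesion libraries of all 3 days on the left, the contralateral ones in the middle and the unoperated day 0 libraries on the right of each gene (1 point per library). Ly86 and Tlr3 lie at the top and Tlr1 at the bottom, and for Ly86 all lesion points lie above all contralateral points.

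The question of the comparison between sides is which of these transcripts an axotomy changes in the part of the brainstem that holds the cut neurons. Averaged over the 3 days, 7 of the 10 genes were higher in the lesion pons (Ly86, Tlr1, Tlr13, Tlr9, Tlr7, Tlr2 and Cd14), where 3.84% of all genes tested were called higher. By day, 2 genes were called higher at day 7 (Ly86 and Tlr13; 1.56% of all genes), 3 at day 14 (Ly86, Tlr1 and Tlr2; 2.58%) and 5 at day 30 (Ly86, Tlr13, Tlr9, Tlr2 and Tlr7; 1.04%). A call between the sides does not say that the lesion side rose above the unoperated level. None of the 10 was called lower on any day. Calls required an adjusted p below 0.05 in edgeR's quasi-likelihood test with Benjamini-Hochberg adjustment over all genes tested. All 3 lesion libraries lay above all 3 contralateral libraries for 7 genes at day 7, 5 at day 14 and 7 at day 30, and this held for 7.26%, 10.7% and 9.71% of all genes tested. The median log2 difference of the 10 genes was 0.62 at day 7, 0.39 at day 14 and 0.78 at day 30, while the median of all genes tested lay within 0.01 of 0 on each day.

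**Figure D2:**
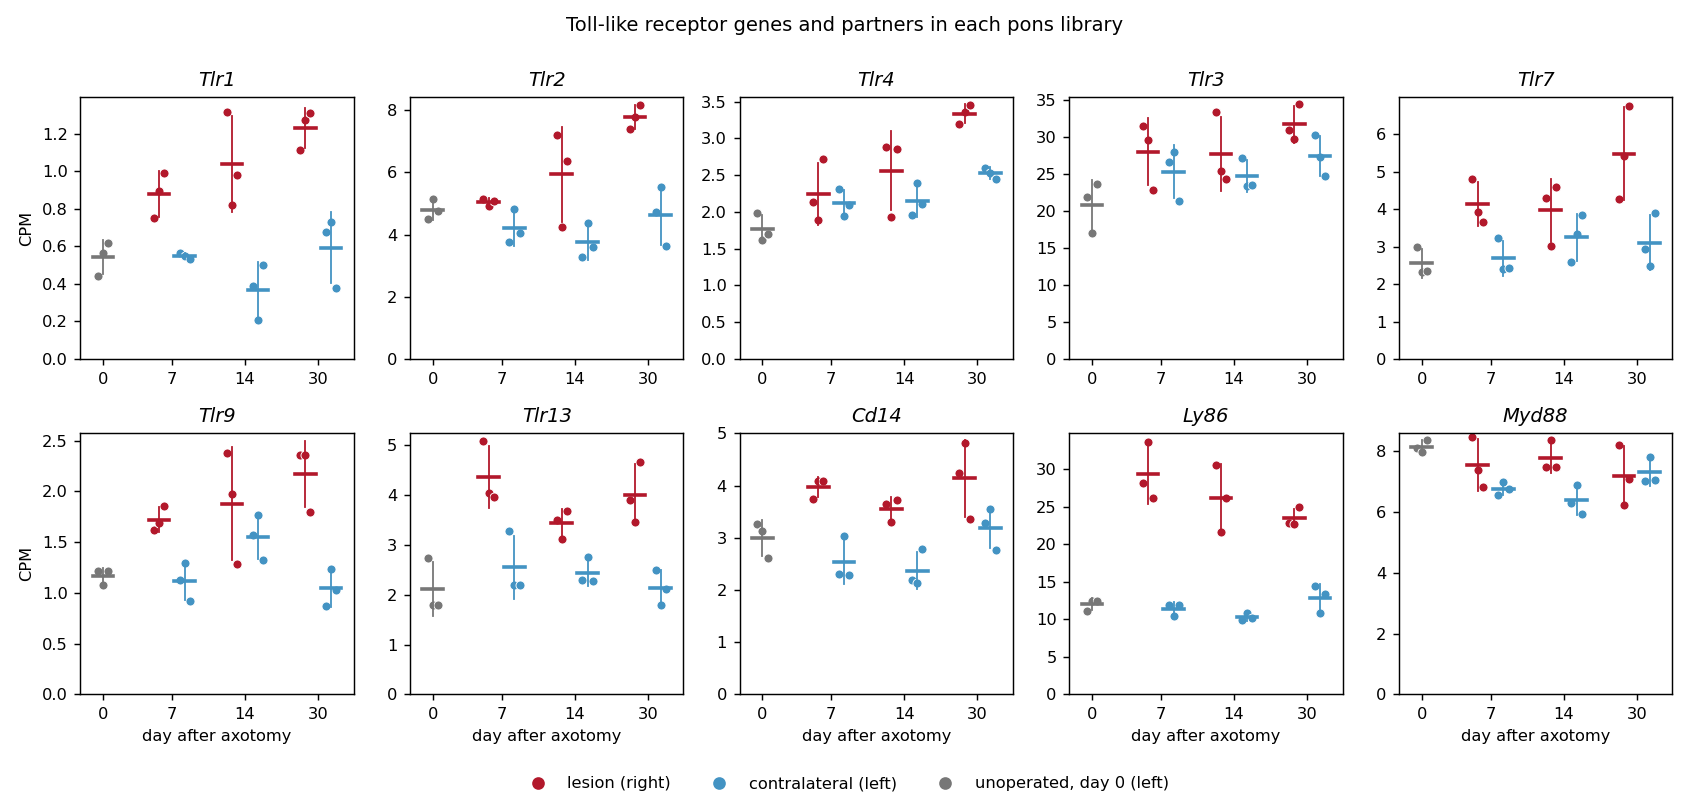
CPM of each gene in every library by day after axotomy, lesion left of contralateral within a day and the unoperated libraries at day 0. Points are libraries, horizontal bars are means and vertical bars are the SD of 3 libraries. The 9 lesion libraries of Ly86 lie between 21.7 and 33.7 CPM and the 9 contralateral ones between 9.88 and 14.4 CPM.

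Ly86 encodes MD-1, a small secreted protein that binds the receptor Cd180, a relative of Tlr4 (GRCm38 chromosome 13, 37345208 to 37419036, plus strand). At day 7 it had 28.2, 33.7 and 26.1 CPM in the lesion pons, against 11.9, 10.4 and 12.0 CPM in the contralateral pons. At day 14 the lesion libraries had 30.6, 21.7 and 26.2 CPM and the contralateral ones 9.88, 10.9 and 10.1 CPM. At day 30 the values were 22.9, 22.7 and 24.9 CPM in the lesion pons and 14.4, 10.9 and 13.4 CPM in the contralateral pons. On every day the lowest lesion library lay well above the highest contralateral one. The log2 differences were 1.36 ± 0.12 at day 7, 1.34 ± 0.12 at day 14 and 0.86 ± 0.12 at day 30 (± SE), with adjusted p = 1.7e-08, 1.8e-08 and 4.2e-05. Ly86 was called in all 14 alternative analyses of each day, left-out libraries included, that kept the threshold on p alone.

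Tlr13 encodes an endosomal receptor for bacterial ribosomal RNA (chromosome X, 106143204 to 106160493, plus strand). At day 7 it had 5.08, 4.03 and 3.96 CPM in the lesion pons, against 3.29, 2.19 and 2.19 CPM in the contralateral pons. At day 30 it had 3.91, 3.45 and 4.67 CPM, against 2.5, 1.8 and 2.11 CPM. The sides did not overlap on either day, nor at day 14, when the values were 3.49, 3.13 and 3.69 CPM against 2.3, 2.75 and 2.28 CPM. It was higher on the lesion side by a log2 of 0.77 ± 0.20 at day 7 (adjusted p = 0.039) and 0.90 ± 0.20 at day 30 (0.016). Day 14 gave 0.49 ± 0.20 (0.17). The day 7 call was lost without lesion replicates 1, 2 or 3 (adjusted p = 0.23, 0.069 and 0.055) and without contralateral replicates 2 or 3 (0.25 and 0.26), and in a fit of the compared groups only (0.071). The day 30 call was lost without lesion replicate 3 (0.13) and without contralateral replicates 2 or 3 (0.12 and 0.085).

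Tlr9, a receptor for unmethylated CpG DNA (chromosome 9, 106222598 to 106226883, plus strand), was called at day 30. The lesion libraries had 2.36, 2.36 and 1.8 CPM and the contralateral ones 0.867, 1.24 and 1.03 CPM, with no overlap, a log2 difference of 1.07 ± 0.23 and adjusted p = 0.012. At day 14 the sides overlapped, with 2.38, 1.97 and 1.28 CPM against 1.57, 1.76 and 1.32 CPM. The log2 differences of days 7 and 14 were 0.63 ± 0.24 and 0.26 ± 0.22 (adjusted p = 0.37 and 0.58). The day 30 call was lost without lesion replicates 1 or 2 (adjusted p = 0.068 and 0.064) and without contralateral replicates 1 or 3 (0.11 and 0.071).

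Tlr7, a receptor for single-stranded RNA (chromosome X, 167304929 to 167330558, minus strand), had 4.28, 5.41 and 6.76 CPM in the lesion pons at day 30, against 2.94, 2.48 and 3.9 CPM in the contralateral pons. These did not overlap, and the log2 difference was 0.80 ± 0.20 with an adjusted p of 0.049, close to the threshold. At day 7 it was 0.61 ± 0.21 (adjusted p = 0.27) and at day 14 0.28 ± 0.21 (0.5). With the replicate number as a block, which treats same-numbered left and right libraries as pairs, the day 30 adjusted p was 0.011. Leaving out lesion replicates 2 or 3 (adjusted p = 0.14 and 0.38) or contralateral replicates 1 or 2 (0.22 and 0.32) ended the call, as did limma-voom (0.087), DESeq2 size factors (0.052) and edgeR's own filter (0.055).

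Tlr3, a receptor for double-stranded RNA (chromosome 8, 45395665 to 45411080, minus strand), was not called between sides. Its means were 28 ± 4.5, 27.7 ± 5 and 31.8 ± 2.5 CPM in the lesion pons at days 7, 14 and 30, against 25.4 ± 3.6, 24.7 ± 2.2 and 27.5 ± 2.7 CPM in the contralateral pons. The sides overlapped on every day. The log2 difference over the 3 days was 0.17 with a 95% interval of -0.0092 to 0.35. Its exons share 381 bases with Gm45542 on the opposite strand, and whether reads were counted by strand is not given in the sources used here.

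Among the surface receptors, Tlr2 binds lipoproteins as a partner of Tlr1 or Tlr6 (chromosome 3, 83836272 to 83841767, minus strand). At day 30 it had 7.41, 7.77 and 8.17 CPM in the lesion pons, against 4.72, 5.52 and 3.62 CPM in the contralateral pons. The day 14 libraries had 7.19, 4.24 and 6.36 CPM on the lesion side and 3.28, 4.36 and 3.61 CPM on the contralateral side. The sides were apart at day 30, and at day 14 lesion replicate 2 lay within the contralateral range. The log2 differences were 0.26 ± 0.17 at day 7 (adjusted p = 0.91), 0.65 ± 0.17 at day 14 (0.028) and 0.76 ± 0.16 at day 30 (0.013). Without lesion replicate 2 the day 14 value was 0.85 ± 0.16 (adjusted p = 0.0015). It was lost at day 14 without lesion replicates 1 or 3 (0.078 and 0.09), without contralateral replicates 1 or 3 (0.12 and 0.1) by limma-voom (0.054) and in a fit of the compared groups only (0.13). At day 30 it was lost without lesion replicate 3 (0.072) and without contralateral replicates 1 or 3 (0.05 and 0.17). Against day 0, Tlr2 at day 14 differed by 0.29 ± 0.16 in the lesion pons (adjusted p = 0.22) and by -0.36 ± 0.17 in the contralateral pons (0.15). Neither was called, so the day 14 call between sides does not show a rise above the unoperated level.

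Tlr1 (chromosome 5, 64924679 to 64933563, minus strand) was called at day 14. It had 1.32, 0.819 and 0.979 CPM in the lesion pons, against 0.392, 0.208 and 0.502 CPM in the contralateral pons, which rested on 26, 22 and 26 reads against 8, 4 and 11 reads. The sides did not overlap on any of the 3 days. The log2 differences were 0.69 ± 0.31 at day 7 (adjusted p = 0.6), 1.45 ± 0.32 at day 14 (0.007) and 1.05 ± 0.29 at day 30 (0.081). The day 14 call was lost without contralateral replicate 2 (adjusted p = 0.068) and in a fit of the compared groups only (0.063). Of the 50-base windows of Tlr1 transcripts 13.6% also occur in Tlr6, its neighbour and close relative, so some reads may have been counted for either or left out. Tlr6 itself was not called on any day, with 0.627 ± 0.12 CPM in the lesion pons and 0.319 ± 0.14 CPM in the contralateral pons at day 14 (adjusted p = 0.16).

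Tlr4, the lipopolysaccharide receptor (chromosome 4, 66827584 to 66930284, plus strand), was not called between sides. It had 2.14, 1.89 and 2.71 CPM in the lesion pons at day 7, against 2.31, 1.94 and 2.09 CPM in the contralateral pons. At day 30 the values were 3.2, 3.36 and 3.45 CPM against 2.6, 2.53 and 2.44 CPM. The sides overlapped at day 7 and were apart at day 30, where the log2 difference was 0.40 with a 95% interval of 0.038 to 0.76 and an adjusted p of 0.57. Over the 3 days the log2 difference was 0.25 with a 95% interval of 0.030 to 0.46 (adjusted p = 0.28).

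Cd14, a co-receptor that hands lipopolysaccharide to Tlr4 (chromosome 18, 36725067 to 36726798, minus strand), was called over the 3 days together but on no single day. At day 7 it had 3.75, 4.08 and 4.09 CPM in the lesion pons, against 2.31, 3.04 and 2.29 CPM in the contralateral pons. At day 14 the values were 3.65, 3.31 and 3.73 CPM against 2.2, 2.13 and 2.79 CPM, and at day 30 they were 4.24, 4.82 and 3.35 CPM against 3.27, 3.55 and 2.77 CPM. The sides were apart at days 7 and 14 and overlapped at day 30. The log2 differences were 0.65 ± 0.17 (adjusted p = 0.051), 0.58 ± 0.17 (0.054) and 0.38 ± 0.16 (0.55), and 0.53 ± 0.097 over the 3 days (4.8e-04). At day 7 it was called with the replicate block (adjusted p = 0.032), on the deposited log2 matrix with limma (0.035), with edgeR's own filter (0.044), with DESeq2 size factors (0.05) and without contralateral replicate 2 (0.035). At day 14 it was called with the replicate block (0.036), on the deposited matrix (0.043) and with edgeR's own filter (0.046).

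Myd88 (chromosome 9, 119335934 to 119341411, minus strand) was not called between sides on any day. Its means were 7.55, 7.79 and 7.18 CPM in the lesion pons at days 7, 14 and 30, against 6.77, 6.39 and 7.3 CPM in the contralateral pons. The sides overlapped at days 7 and 30 and were apart at day 14 (7.49, 8.38 and 7.49 CPM against 6.31, 6.91 and 5.94 CPM, adjusted p = 0.16). Over the 3 days the log2 difference was 0.14 with a 95% interval of 0.0062 to 0.28 (adjusted p = 0.35). Its exons share 290 bases with Acaa1a on the opposite strand.

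**Figure D3:**
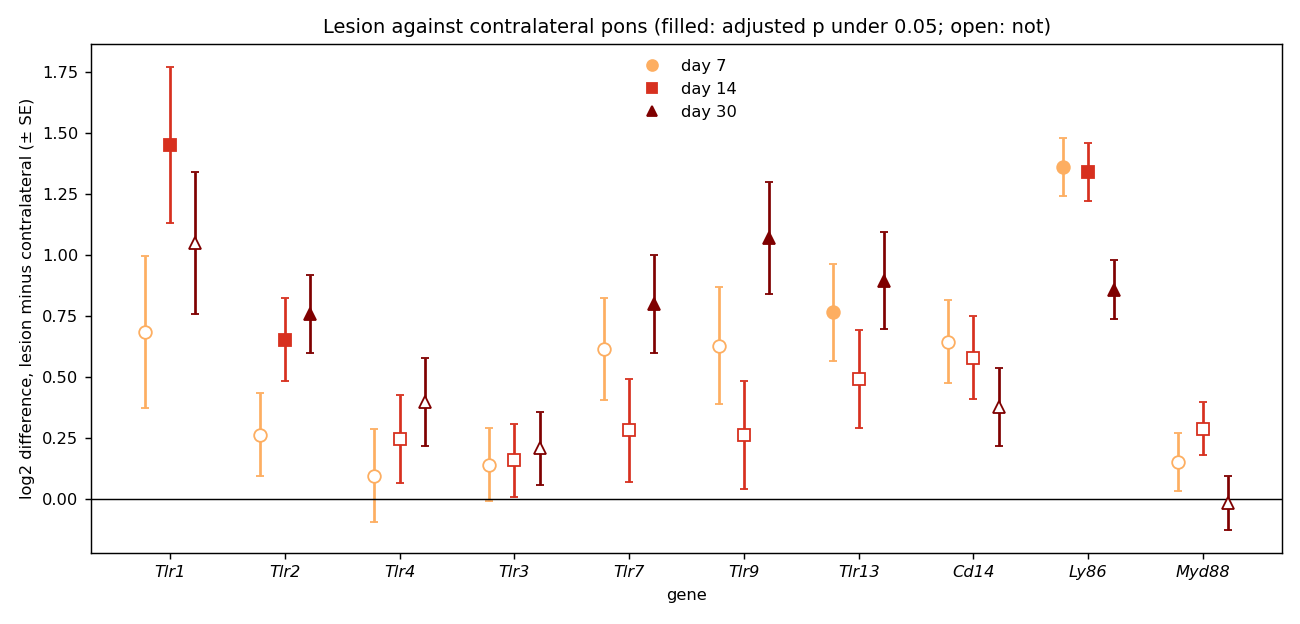
Log2 difference between lesion and contralateral pons with its SE for each gene at days 7, 14 and 30, filled where the adjusted p was under 0.05. Ly86 is filled on all 3 days, Tlr3, Tlr4, Cd14 and Myd88 on none, and the other 5 genes on 1 or 2 days.

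The differences between days were tested as such. No gene of the 10 passed the threshold in the change of the lesion effect between days 7 and 14 (0% of all genes tested), between days 14 and 30 (0.0807%) or between days 7 and 30 (0.0269%). At an unadjusted p under 0.05 there were 0, 2 and 2 of the 10 genes, and 1320, 3376 and 960 of all genes tested. The lesion effect of Ly86 was smaller by 0.50 ± 0.16 on the log2 scale at day 30 than at day 7 (unadjusted p = 0.0052, adjusted p = 0.83). That of Tlr9 was larger by 0.80 ± 0.32 at day 30 than at day 14 (unadjusted p = 0.019, adjusted p = 0.24). In the same test the lesion effect of Ly86 changed by -0.48 ± 0.16 from day 14 to day 30 (unadjusted p = 0.0071, adjusted p = 0.19). That of Tlr2 changed by 0.49 ± 0.24 from day 7 to day 30 (unadjusted p = 0.048, not called after adjustment). That a gene was called on 1 day and not on another therefore does not show a difference between the days. Nor do these tests show that the days were alike.

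Sequence upstream of 5 of the genes called higher in the lesion pons is shown so that matches to 3 regulatory elements can be read in place. RefSeq promoter windows of GRCm38.p6 were searched for 7 of the 10 genes, and those of Cd14, Tlr4 and Tlr7 were not searched. The 250 bases before each start were read on both strands. The elements were the PU box (GAGGAA, the core bound by the myeloid factor PU.1), an interferon response core (GAAANNGAA) and the NF-kB site. Capitals mark the matches, and bases inside the GENCODE gene are left out. Tlr9 and Tlr13 are read from the plus strand, as is Ly86, and Tlr1 and Tlr2 from the minus strand.
Tlr9, chr9:106222348-106222597: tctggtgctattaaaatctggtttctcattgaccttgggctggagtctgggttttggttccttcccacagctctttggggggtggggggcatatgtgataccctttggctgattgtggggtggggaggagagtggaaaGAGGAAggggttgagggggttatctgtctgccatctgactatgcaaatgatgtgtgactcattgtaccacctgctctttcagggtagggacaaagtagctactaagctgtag
Tlr13, chrX:106143025-106143203: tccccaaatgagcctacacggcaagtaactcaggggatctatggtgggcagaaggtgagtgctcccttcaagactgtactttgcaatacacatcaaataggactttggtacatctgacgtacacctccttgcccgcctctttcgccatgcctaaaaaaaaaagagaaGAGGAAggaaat
Tlr1, chr5:64933564-64933808: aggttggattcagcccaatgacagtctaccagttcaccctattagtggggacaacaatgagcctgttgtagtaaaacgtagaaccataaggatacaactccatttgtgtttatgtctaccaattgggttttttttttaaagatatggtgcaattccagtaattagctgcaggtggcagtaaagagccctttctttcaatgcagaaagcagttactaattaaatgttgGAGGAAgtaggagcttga
Tlr2, chr3:83841768-83841858: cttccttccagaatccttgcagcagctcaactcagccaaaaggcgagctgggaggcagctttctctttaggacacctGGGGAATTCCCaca
Ly86, chr13:37345095-37345207: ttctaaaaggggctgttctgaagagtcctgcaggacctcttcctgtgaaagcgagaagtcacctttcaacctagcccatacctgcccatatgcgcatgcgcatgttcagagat

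A PU box was found before 3 of the 7 genes, in the sense strand of Tlr9, Tlr13 and Tlr1, and 23.3% of the 32851 promoter windows searched hold one. The NF-kB site was found before Tlr2, as overlapping matches on both strands of a palindrome, and before Tlr3, and 7.25% of all windows hold one. The interferon response core was found before Myd88, and 7.13% of all windows hold one. The printed bases and the rest of the window of Ly86 hold no match to any of these, which says only that these letters are not in that window.

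Against the unoperated pons more of the genes were called, and more with each later day. Higher in the lesion pons than at day 0 were 3 of the 10 genes at day 7 (Ly86, Tlr13 and Tlr7; 8.14% of all genes tested), 6 at day 14 (Ly86, Tlr13, Tlr1, Tlr7, Tlr9 and Tlr4; 9.78%) and 9 at day 30 (12.7%), with Myd88 the exception at day 30. These 3 comparisons share the day 0 libraries. Tlr4 reached 3.2, 3.36 and 3.45 CPM in the lesion pons at day 30, against 1.99, 1.62 and 1.7 CPM at day 0, a log2 difference of 0.92 ± 0.17 (adjusted p = 2.6e-04). Tlr7 had 4.28, 5.41 and 6.76 CPM against 2.98, 2.32 and 2.35 CPM, a difference of 1.09 ± 0.19 (1.5e-04). Neither pair of groups overlapped. Tlr3 had 31, 29.7 and 34.6 CPM in the lesion pons at day 30, against 21.9, 17.1 and 23.7 CPM at day 0 (0.61 ± 0.14, adjusted p = 0.0048). Ly86 differed from day 0 by 1.28 ± 0.11, 1.11 ± 0.11 and 0.96 ± 0.11 at days 7, 14 and 30 (adjusted p = 6.4e-09, 4.5e-08 and 4e-07). Of the day 30 calls only that of Cd14 (0.47 ± 0.15, adjusted p = 0.03) was lost when 1 library was left out, without lesion replicates 1 or 2 (0.085 and 0.17) or day 0 replicates 2 or 3 (0.054 and 0.13).

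At day 14 the count of genes above day 0 depended on single libraries. It was 2 without lesion replicate 1 or without day 0 replicate 2, 3 without day 0 replicate 3, and 2 in a fit of these groups only, whereas Ly86 was called in each of these. Tlr1 was lost without lesion replicate 1 (adjusted p = 0.096) or day 0 replicate 1 (0.076), and Tlr13 without day 0 replicates 2 or 3 (0.051 and 0.052). Tlr7 was lost without lesion replicates 1 or 3 (0.074 and 0.14) and without day 0 replicates 2 or 3 (0.089 and 0.087), and Tlr4 without the same 4 libraries (0.13, 0.17, 0.12 and 0.097). Tlr9 was lost without lesion replicates 1 or 2 (0.16 and 0.093) and without any day 0 replicate (0.053, 0.091 and 0.056). Tlr2 and Tlr3 were not called, and passed without lesion replicate 2 (Tlr2, 0.025) and without lesion replicate 3 or day 0 replicate 3 (Tlr3, 0.044 and 0.035). At day 7 the call of Tlr7 was lost without lesion replicate 1 (0.11) or day 0 replicates 2 or 3 (0.076 and 0.081), and Tlr3 passed without lesion replicate 3 (0.019) or day 0 replicate 3 (0.04). Markers of other cells differed from day 0 too. Of 7 endothelial and pericyte markers 3, 5 and 4 were lower in the lesion pons at days 7, 14 and 30, and of 6 oligodendrocyte markers 4, 4 and 3, where 4.32%, 7.03% and 9.69% of all genes tested were called lower. Of 6 neuron markers 2, 2 and 3 were higher, where 8.14%, 9.78% and 12.7% of all genes tested were called higher. At day 30 the summed levels in the lesion pons were 380.1 to 397 CPM for endothelial and pericyte markers, 28250 to 29710 CPM for oligodendrocyte markers and 6626 to 7102 CPM for neuron markers. At day 0 they were 428.6 to 493.8, 31200 to 33280 and 5930 to 6194 CPM, and none of these ranges overlapped. The contralateral pons at day 30 was apart from day 0 in the same directions, at 362.9 to 410.5, 28510 to 30630 and 6776 to 7225 CPM. These shifts were thus not particular to the lesion side. The mitochondrial share of counts moved with day as well, at 3.617% to 3.837%, 2.814% to 4.476% and 5.845% to 6.437% in the lesion pons at days 7, 14 and 30, against 3.051% to 3.603% at day 0. In the contralateral pons it was 3.941% to 4.447%, 4.483% to 4.758% and 6.314% to 7.285%. The part of these in the differences from day 0 was not tested.

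On the contralateral side no gene of the 10 differed from the unoperated pons at day 7 (10.5% of all genes tested were called in either direction), and 1 had an unadjusted p under 0.05 (Myd88, 0.022). At day 14 Myd88 was lower (15.8% of all genes tested in either direction, 6.73% lower). It had 6.31, 6.91 and 5.94 CPM in the contralateral pons, against 8.12, 7.96 and 8.38 CPM at day 0. The groups did not overlap, and the log2 difference was -0.35 ± 0.11 (adjusted p = 0.028). Tlr2 also lay below day 0 without overlap at day 14, by -0.36 ± 0.17 (unadjusted p = 0.041, adjusted p = 0.15). At day 30 Tlr4 was higher (16.1% in either direction, 9.32% higher), with 2.6, 2.53 and 2.44 CPM against 1.99, 1.62 and 1.7 CPM, a log2 difference of 0.52 ± 0.18 (adjusted p = 0.048). Tlr3 had an unadjusted p of 0.013 there (adjusted p = 0.072). A single call among 10 genes is near the share of all genes on both days. The Myd88 call did not hold when day 0 replicate 2 (0.061) or 3 (0.088) was left out, nor without contralateral replicate 1 (0.076) or 3 (0.14), without a filter (0.058) or in a fit of these groups only (0.062). The Tlr4 call was lost without day 0 replicate 2 (0.15) or 3 (0.12), without any contralateral replicate (0.12, 0.096 and 0.086), without a filter (0.098), in a fit of these groups only (0.067) and by DESeq2 (0.06). Ly86 in the contralateral pons stayed within 0.23 of its day 0 level on the log2 scale, with 95% intervals of -0.32 to 0.16, -0.47 to 0.016 and -0.14 to 0.34 at days 7, 14 and 30.

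Many microglial markers were also higher in the lesion pons, whereas Tlr3, Tlr4 and Myd88 were not called between the sides. The missing calls do not show that these genes were alike on both sides. Of all genes tested 1.56%, 2.58% and 1.04% were called higher in the lesion pons than in the contralateral pons at days 7, 14 and 30. Of 12 homeostatic microglia markers 8, 7 and 6 were higher on these days, with Siglech, Tmem119, Olfml3, Csf1r and Selplg among those called on all 3 days. Their median log2 differences were 0.54, 0.60 and 0.42. Their summed level was 451.7 to 520.7, 452 to 540.6 and 470.6 to 489.7 CPM in the lesion pons on the 3 days, against 317.2 to 359.7, 325.8 to 352.6 and 335.1 to 376.3 CPM in the contralateral pons. Of 10 activated microglia markers 5, 8 and 8 were higher, among them Itgax, which averaged 2.56 CPM in the lesion pons and 0.218 CPM in the contralateral pons at day 30. Of 6 astrocyte markers and 9 dendritic and B cell markers none was called on a single day. The summed astrocyte level overlapped at day 7. At day 14 it was 3880 to 4195 CPM in the lesion pons and 3439 to 3816 CPM in the contralateral pons. At day 30 it was 4017 to 4341 and 3707 to 4003 CPM, so the sides were apart on both later days. Of 9 monocyte and neutrophil markers tested none was called on a single day, and neither was any of 8 border macrophage markers. No call in lists of 6 to 9 genes is near the share of all genes, so it does not show that these cells were unchanged. The neutrophil marker Ly6g did not exceed 0.149 CPM in any library, and the summed level of the monocyte and neutrophil markers was 35.05 to 36.47 CPM in the lesion pons at day 30 and 29.24 to 33.1 CPM in the contralateral pons. Over the 3 days together the monocyte receptor gene Ccr2 was higher, at 0.745 CPM in the lesion pons and 0.422 CPM in the contralateral pons (adjusted p = 0.045). Of 7 T cell markers tested none was called at days 7 and 14, and Cd8a, Cd3d and Cd3g were higher at day 30. Their summed level was 4.035 to 6.599 CPM in the lesion pons and 2.814 to 3.429 CPM in the contralateral pons on that day. The part of these cells in the results was not tested.

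Relative to the microglia markers the 10 genes parted. The level of each gene was set against the mean log2 level of the 12 homeostatic markers in the same library, as a description without a test. Since these markers were higher on the lesion side, a gene at the same level on both sides comes out lower there on this scale. Myd88, Tlr3 and Tlr4, not called between the sides, are to be read in that way. Ly86 stood at -0.093, -0.30 and -0.35 in the lesion pons at days 7, 14 and 30, against -0.93, -1.07 and -0.82 in the contralateral pons. The lesion libraries lay above the contralateral ones on all 3 days, so Ly86 was higher on the lesion side by more than these markers were. Tlr1 was apart in the same direction at days 14 and 30, and Tlr9 and Tlr13 at day 30. Myd88 lay lower on the lesion side on all 3 days, at -2.04, -2.02 and -2.06 against -1.68, -1.75 and -1.63, and Tlr3 did so at days 7 and 14. Tlr4 was lower on the lesion side at day 14, at -3.62 against -3.29, and overlapped at days 7 and 30. For Tlr2, Tlr7 and Cd14 the sides overlapped on every day on this scale. The share of all genes whose sides lie apart on this scale was not computed.

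**Figure D4:**
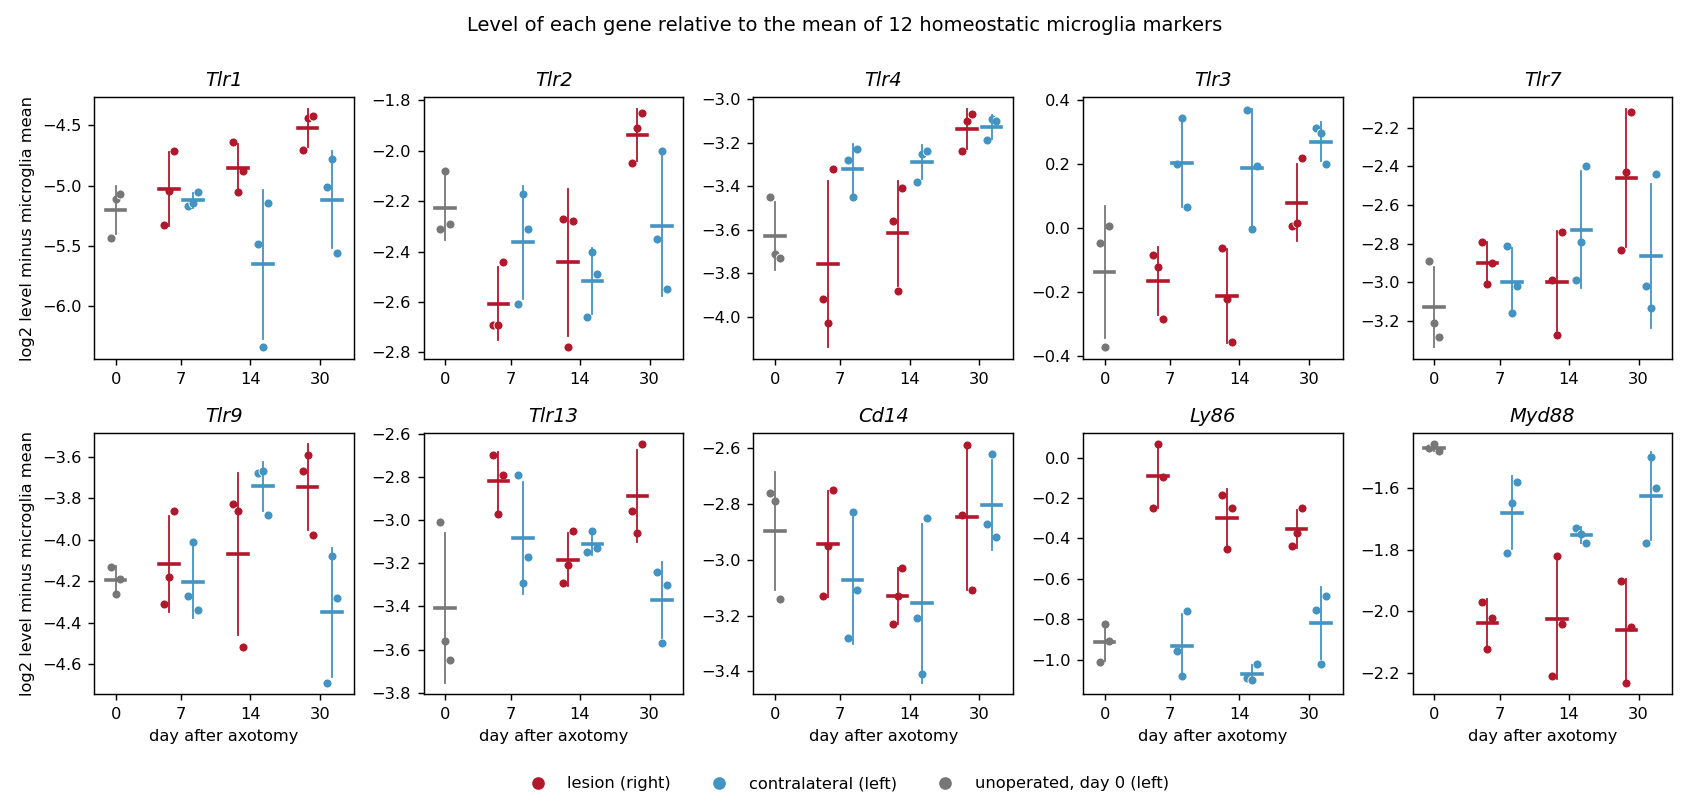
Log2 level of each gene minus the mean log2 level of 12 homeostatic microglia markers in the same library, by day, lesion left of contralateral, with points for libraries, horizontal bars for means and vertical bars for the SD of 3 libraries (the vertical scale differs between panels). The lesion points lie above the contralateral ones for Ly86 and below them for Myd88 at days 7, 14 and 30.

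Genes that work with the receptors were called in some lists and not in others. Of all genes tested 1.56%, 2.58% and 1.04% were called higher at days 7, 14 and 30. Of 10 genes for folding, trafficking and cleavage of the receptors 3 were higher in the lesion pons on each day. These were Unc93b1, the chaperone that carries nucleic acid receptors to endosomes, and the cathepsin genes Ctss and Ctsb, whose proteases cut them there. Ctss averaged 165 ± 11, 181 ± 14 and 198 ± 16 CPM in the lesion pons at days 7, 14 and 30, against 79.7 ± 6.3, 76.5 ± 7.8 and 93.2 ± 4 CPM in the contralateral pons (adjusted p = 9.6e-10, 3e-11 and 1.6e-09). Unc93b1 averaged 25.8 ± 2.2, 22.4 ± 4.2 and 25.5 ± 1.1 CPM against 15.6 ± 0.32, 14.2 ± 0.96 and 15.4 ± 1.6 CPM (adjusted p = 4.8e-05, 1.5e-04 and 7.2e-05).

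Of 9 other receptors and co-receptors tested, Tlr12 was called at day 14 (1.1 ± 0.27 CPM in the lesion pons and 0.43 ± 0.18 CPM in the contralateral pons, adjusted p = 0.044) and none at days 7 and 30. Cd180, the receptor that MD-1 binds, was called over the 3 days together at 4.36 CPM in the lesion pons and 1.92 CPM in the contralateral pons (log2 difference 1.18 ± 0.21, adjusted p = 9.5e-04). Of 21 adaptors and kinases none was called on a single day. No call in a list of this size is near the shares of all genes (1.56%, 2.58% and 1.04% called higher at days 7, 14 and 30). Over the 3 days Pik3ap1 and Btk, signalling genes of myeloid and B cells, were higher by 0.94 ± 0.17 and 0.64 ± 0.13 (3.84% of all genes tested). Of 12 inhibitors of the pathway 1 was higher on each day, Atf3, which axotomized neurons also switch on. The deubiquitinase gene Cyld was lower at day 14 (log2 difference -0.25 ± 0.064, adjusted p = 0.023).

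Of 12 transcription factors of the pathway 3, 4 and 3 were higher at days 7, 14 and 30. The share of all genes tested was 1.56%, 2.58% and 1.04% on these days. Irf8, an interferon regulatory factor of myeloid cells, was called on all 3 days by 0.95 ± 0.19, 1.15 ± 0.19 and 1.13 ± 0.18 on the log2 scale (adjusted p = 0.004, 3.1e-04 and 5.8e-04). Spi1, the gene of PU.1, was called at days 7 and 14, Jun likewise, Irf5 at days 14 and 30 and Irf7 at day 30. Of 18 induced targets tested 2, 4 and 5 were higher. The chemokine gene Ccl2 and the cytokine feedback gene Socs3 were called on all 3 days, Ccl5 and Il1a at days 14 and 30 and Ccl3 at day 30. Ccl5 averaged 6.05 CPM in the lesion pons at day 30 and 0.195 CPM in the contralateral pons (log2 difference 4.88 ± 0.59, adjusted p = 7.2e-05).

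**Figure D5:**
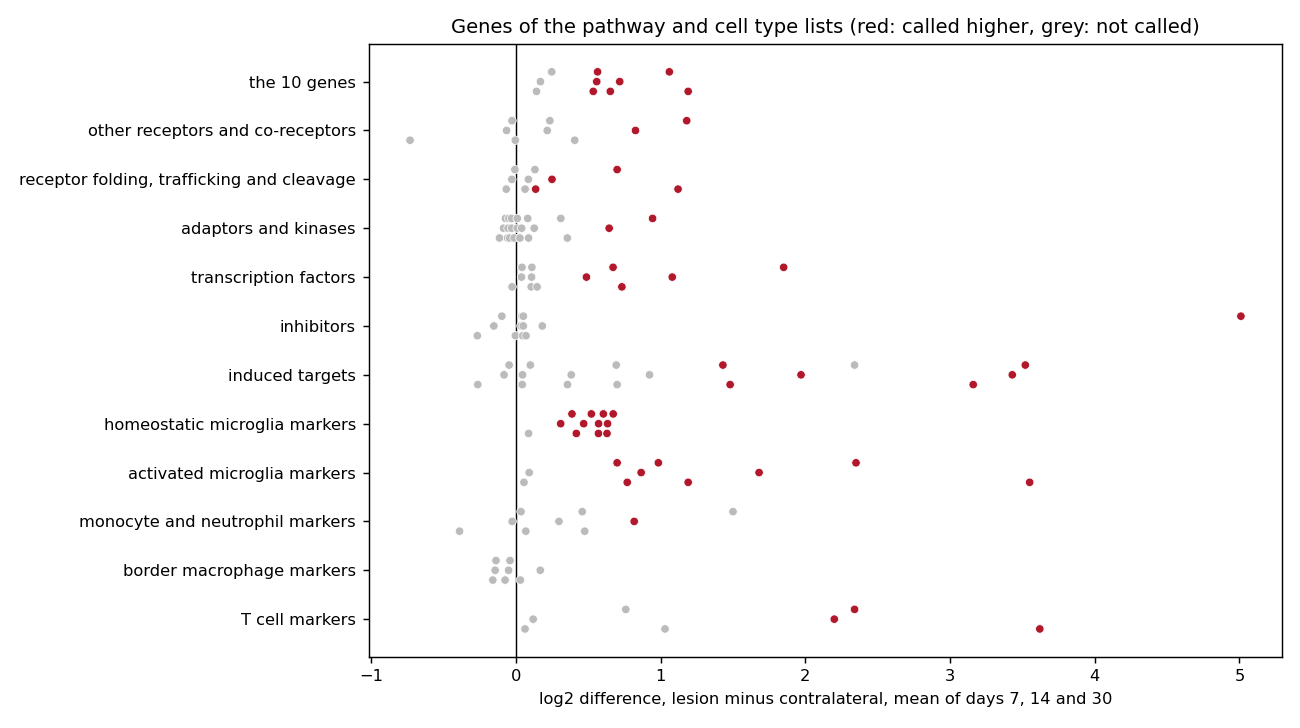
Log2 difference between lesion and contralateral pons over days 7, 14 and 30 for every gene tested of each list, red where called higher and grey where not called. Of the 10 genes 7 are red, of the 21 adaptors and kinases 2, and of the 12 homeostatic microglia markers 11. Of all genes tested 3.84% were called higher.

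The genes whose course over the 7 groups was most like that of each called gene were named by the smallest root mean square difference of the 7 centred group means (log2 CPM), among 13410 genes with at least 1 CPM on average. For Ly86 these were Csf2rb2 (0.142), Fcgr1 (0.15) and Ctss (0.161), set against a span of 1.49 of Ly86 itself over the groups. For Tlr2 they were Clec5a (0.0437), Psmb9 (0.0617) and Gpr160 (0.0835), over a span of 1.05. Tlr1 had Aif1 (0.12), Isg20 (0.13) and Il21r (0.135) over a span of 1.6, and Tlr7 had Samd9l (0.0654), Arhgap30 (0.0841) and Ifi203 (0.0844) over 1.06. Tlr9 had Plcb2, Arhgap30 and Tor3a (0.128 each) over 1, and Tlr13 had Rac2 (0.121), Ngfr (0.133) and Gcnt1 (0.133) over 1.03. All genes compared come from the same 21 libraries and share their depth.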

How the data were processed

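Per the labels' protocols, polyadenylated RNA was made into stranded libraries and read as 50-base single reads. Per the series' design text and the submitters' processing notes, the authors used CASAVA 1.8.2 for base calls, the Rsubread aligner (GRCm38.p4, GENCODE M7) and featureCounts for counting. The deposited table holds raw counts per gene symbol. The deposited log2 matrix was used as an alternative, and its values differed from log2 CPM recomputed here with TMM factors by at most 5e-11 in 22269 matched genes.

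The authors' filter was applied (summed count above the 32nd percentile of the 32815 genes with a count). The quasi-likelihood F-test of edgeR 4.0.16 (R 4.3.3) was run two-sided on all 21 libraries, with robust dispersions, TMM scaling and 1 coefficient per group. Exact tests of 3 against 3 libraries cannot go below p = 0.1. Alternatives were DESeq2 1.42.0, limma 3.58.1 (voom, and on the deposited matrix), other scaling, filters, samples and thresholds, a replicate block and leaving out each library. The tests were checked on simulated counts.

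Same-numbered left and right libraries correlated by 0.17 to 0.27 at day 7, -0.0034 to 0.27 at day 14 and 0.19 to 0.21 at day 30 after group means were removed. At days 7 and 30 every same-numbered pair correlated above every differently numbered pair of that day, which was not so at day 14. The labels do not say that same-numbered libraries share an animal, so the pairing in the replicate block is an assumption. No replicates agreed within sampling noise (chi-square per gene of at least 3.14). Named genes were the 10 genes, called members of each list (at most 6 per comparison) and the 3 genes nearest in course. Tlr6 was added after its values were seen, because it shares sequence with Tlr1. The 10 genes and the lists were chosen with earlier results of these data known. Windows of 50 bases and positions are from GENCODE M21. Intervals and SE cover the spread between libraries.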

Additional observations from a re-analysis of the deposited data

How the results depend on the processing

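No log2 difference of the 10 genes changed sign together with its call. Of the alternative values for single genes 1962 stayed on the same side of the threshold, 77 no longer passed it and 21 newly passed it. When an absolute log2 difference of at least 1.7 was also required, the count of genes called was 0 between the sides on each day and over the 3 days, and 0 in each comparison with day 0 that had called genes. In fits of the compared groups only, 1 gene was called at day 7 and 1 at day 14 between the sides, and against day 0 there were 2 for the day 14 lesion pons and 0 for the day 14 contralateral pons. Without a filter the contralateral pons had 0 genes called against day 0 at days 14 and 30, and with edgeR's own filter 2 at day 30. Leaving out 1 library gave 1 to 2 genes at day 7, 2 to 3 at day 14, 2 to 4 at day 30 and 7 over the 3 days between the sides. In the lesion pons against day 0 it gave 2 to 4, 2 to 6 and 8 to 9 genes at days 7, 14 and 30, and in the contralateral pons 0, 0 to 1 and 0 to 1. With the replicate block, which pairs left and right libraries, 3, 4 and 5 genes were called at days 7, 14 and 30 and 7 over the 3 days, Cd14 being the added gene at days 7 and 14, and the blocked fit ended no call. The cause of these changes was not tested. Tlr1 rested on 4 to 33 reads per library, which limits its precision.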
